A study of Mus musculus with 20 samples.

Results

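The comparison asked whether the loss of 2 nuclear receptors changed the liver response to TCPOBOP by more or less than the sum of the single losses. It used all 20 of the 20 arrays of the series, grouped by the genotype in the sample title. There were 6 wild type livers (WT), 6 deficient in the constitutive androstane receptor (CARKO), 4 deficient in the pregnane X receptor (PXRKO) and 4 deficient in both (CAR/PXR). All mice were C57BL/6J males of 9 to 12 weeks. Treated mice received 10 mg/kg TCPOBOP by intraperitoneal injection and their livers were taken after 12 h. Each array held the RNA of 1 treated liver, labelled with Cy5, against a Cy3-labelled pool of 6 livers of the same genotype from mice given 5% DMSO in corn oil. The sources used here do not say how the deficient lines were made.

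The constitutive androstane receptor (CAR) and the pregnane X receptor (PXR) are ligand-regulated transcription factors of the liver that bind DNA with the retinoid X receptor. They share many target genes, among them enzymes that oxidise and conjugate drugs and the transporters that export the products. TCPOBOP is a potent agonist of mouse CAR. An interaction between both deficiencies shows whether the effect of removing one receptor depends on the presence of the other.

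The Sterolgene array carried 120 mouse probes, printed in 3 spots each. Tests covered the 82 probes measured on 3 or more arrays in each of the 4 genotypes. No table used here links a probe identifier to a gene, so no gene name, function or sequence is given. The liver markers and the transcripts of CAR and PXR were not examined for that reason. At most 2 probes in each direction are named per comparison. The median signal of the mouse spots was 226 to 987 intensity units in Cy5 and 403.5 to 1136 in Cy3 over the 20 arrays. Per array, 43 to 103 probes lay well above background in Cy5 and 35 to 94 in Cy3. The Cy3 numbers were 74 to 89 in WT and 65 to 94 in CARKO, against 50 to 69 in PXRKO and 35 to 73 in CAR/PXR, so detection moved with genotype. A filter on detection is given below, and the part of detection in the results was not otherwise tested. On 4 arrays (WT 3, WT 5, CARKO 3 and CAR/PXR 3) the protocol text of the treated channel is that of the vehicle pool, and the pool of CAR/PXR 3 is also labelled as PXR deficient alone. The labels do not say whether the treated livers of a group were handled separately after collection.

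The response is the log2 ratio of the treated liver over the pool, normalized by loess within each array. The interaction is (CAR/PXR minus PXRKO) minus (CARKO minus WT). It equals the CAR/PXR response minus the sum CARKO plus PXRKO minus WT, which is the response that additive single losses would give. Of the 82 probes, 10 passed the threshold for an interaction (limma, Benjamini-Hochberg adjusted p under 0.05), which is 12.2% of those tested. The CAR/PXR response lay above the sum for 7 of them (8.54% of those tested) and below it for 3 (3.66%). At an unadjusted p under 0.05 there were 21. Of the 10 that passed, the highest were Mm018, at 1.24 ± 0.26 (estimate ± SE, log2 scale), and Mm068, at 1.03 ± 0.26. The lowest were Mm027, at −1.34 ± 0.36, and Mm054, at −1.15 ± 0.27. In all 10 the mean CAR/PXR response had the opposite sign to the sum of the single losses, which was so for 45 of the 82 tested probes. Choosing probes by the difference between response and sum favours opposite signs.

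These values are relative to the bulk of the mouse probes, since loess sets the typical probe of each array to a ratio near 1. The median interaction over the 82 probes was 0.033 after loess. When each array was instead centred on its calibration control spots, that median was −1.40, and 54 probes passed, all of them lower. Arrays of 1 genotype differed under that centring. The median mouse probe was at −0.90, −0.94, −0.80 and −0.87 on WT 1 to 4 and at 0.66 and 0.61 on WT 5 and 6, and CARKO 5, at −0.51, stood apart from the other CARKO arrays, at 0.33 to 0.66. On 16 arrays the labels name a commercial spike-in scorecard for the treated channel and firefly luciferase for the pool, and on the other 4 luciferase alone, so the same amount of calibration RNA in both channels is not certain. The 7 calibration controls with enough values, which that centring uses, themselves had interactions of 1.01 to 1.87 on the loess scale. Controls labelled Lratio had 1.24 to 2.19 and those labelled Luty −1.24 to 1.82. Those labelled CAT, LUC, RLUC and Salmon had −0.10 to 0.71. Under that centring all 10 probes still lay on the same side of the median probe as after loess, while 3 of 10 kept their absolute sign. That centring moves all probes of an array by the same amount, and the 10 were picked on these same arrays. Their side of the median was thus favoured in advance. When each array was centred on its median mouse probe instead, 9 probes passed, 5 of them among the 10. The labels name the pools by genotype only, and 1 pool per genotype is assumed here. An error of a pool then enters the interaction whole and is in no SE or p-value given here.

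Mm018 rose in WT (0.65, limma adjusted p = 1.92e-04), and its mean response passed the test in none of CARKO, PXRKO and CAR/PXR (adjusted p from 0.132 to 0.760). Its log2 ratio on the 6 WT arrays ran from 0.15 to 1.05 with a median of 0.68, and all 6 were above 0. On the 6 CARKO arrays it ran from −0.51 to 0.078 with a median of 0.0032. The WT and CARKO ranges did not overlap. The 4 PXRKO arrays had ratios of −0.08, −0.34, −0.84 and 0.08, and the 4 CAR/PXR arrays 0.42, 0.22, 0.11 and 0.17. All CAR/PXR values lay above all PXRKO and all CARKO values, and below the mean of WT. The loss of CAR lowered the response by 0.72 ± 0.16 when PXR was present (SE, limma adjusted p = 0.0028). When PXR was absent the same loss gave a difference of 0.52 ± 0.20 in the other direction, which did not pass (adjusted p = 0.0554). Additive losses would have put the CAR/PXR mean at −1.01 ± 0.21, and it was measured at 0.23 ± 0.14 (SD, n = 4). The interaction had a 95% interval of 0.71 to 1.78 (limma adjusted p = 0.0089). Mm018 was well above background in both channels on all 20 arrays, and it kept the call without any one array. With print-tip loess the interaction was 0.73 (adjusted p = 0.0266). It did not pass in the authors' table (0.71, adjusted p = 0.306), with calibration centring (−0.61, adjusted p = 0.268) or without centring (−0.023, adjusted p = 0.972).

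Mm068 showed the same order of groups with smaller values in the double deficiency. Its log2 ratio ran from 0.26 to 1.07 in WT (median 0.55) and from −0.49 to 0.59 in CARKO (median −0.25). CARKO 5, at 0.59, was the only CARKO array within the WT range. The PXRKO arrays had −0.05, 0.00, −0.23 and −0.37 and the CAR/PXR arrays 0.14, 0.01, 0.11 and 0.07. The 2 sets did not overlap, though the highest PXRKO value lay close to the lowest CAR/PXR value. CAR/PXR 1, at 0.14, was well above background in neither channel. Either single loss lowered the response by a similar amount, −0.79 ± 0.17 for CAR and −0.80 ± 0.19 for PXR (SE, limma adjusted p = 0.0017 and 0.0161). Their sum predicts −0.95 ± 0.22 in CAR/PXR livers, where the measured mean was 0.08 ± 0.06 (SD, n = 4). The interaction had a 95% interval of 0.48 to 1.58 (limma adjusted p = 0.0153). With calibration centring it was at −0.38 (adjusted p = 0.521), and in the authors' table at 0.10 (adjusted p = 0.906).

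Mm027 had a response that was above 0 on most arrays with at least 1 receptor and below 0 in livers with neither. Its log2 ratio ran from −0.35 to 1.19 in WT (median 0.53) and from −0.38 to 0.71 in CARKO (median 0.48), and these ranges overlapped. In PXRKO it was 1.11, 0.35, 1.46 and 1.12. In CAR/PXR it was −0.61, −0.31, −0.56 and −0.48, below every PXRKO value. CAR loss made a difference of −0.16 ± 0.23 with PXR present (SE, limma adjusted p = 0.639). With PXR absent the response fell by 1.50 ± 0.28 (adjusted p = 4.87e-04). The sum of the single losses predicts 0.85 ± 0.30 and the CAR/PXR mean was −0.49 ± 0.13 (SD, n = 4). The 95% interval of the interaction was −2.09 to −0.59 (limma adjusted p = 0.0181). The call ended without PXRKO 3 (−1.19, adjusted p = 0.0526). With calibration centring, where the median probe lay at −1.40, the interaction was −3.18 (adjusted p = 0.00278). It did not pass in the authors' table (−2.16, adjusted p = 0.142) or without centring (−2.59, adjusted p = 0.228).

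Mm054 rose in CARKO and fell in CAR/PXR. Its log2 ratio ran from −0.15 to 0.51 in WT (median 0.15) and from −0.04 to 1.25 in CARKO (median 0.61). In PXRKO it was 0.30, −0.09, 0.46 and 0.06, close to the WT values. In CAR/PXR it was −0.42, −0.47, −0.57 and −0.72. All 4 of these lay below every value of the other genotypes. PXR loss made a difference of 0.02 ± 0.19 in livers with CAR (SE, limma adjusted p = 0.934) and one of −1.14 ± 0.19 in livers without CAR (adjusted p = 4.21e-04). The additive prediction was 0.61 ± 0.23 against a measured −0.54 ± 0.13 (SD, n = 4), and the interaction had a 95% interval of −1.72 to −0.59 (limma adjusted p = 0.0152). For Mm054 only 2 of the 6 WT arrays had a Cy5 signal well above background, against all 6 for Mm018, Mm068 and Mm027. With calibration centring, where the median probe lay at −1.40, the interaction was −2.54 (adjusted p = 0.00278). It did not pass in the authors' table (−1.81, adjusted p = 0.0882) or without centring (−1.96, adjusted p = 0.228).

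**Figure D1:**
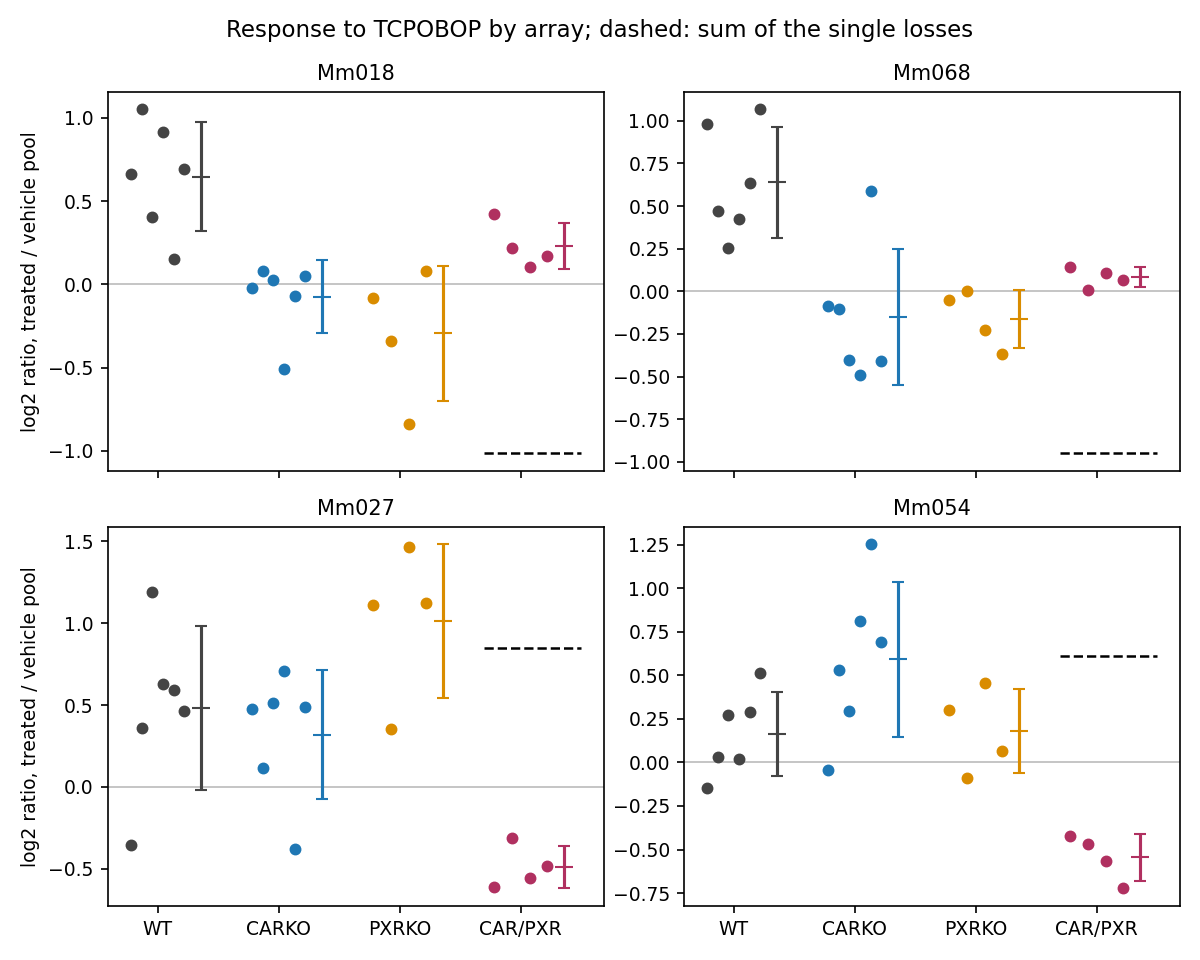
Log2 ratio of treated liver over vehicle pool on each array (points), by genotype, for the 4 named probes; the bar beside each group is the mean ± SD and the dashed line the response that additive single losses would give in CAR/PXR. The CAR/PXR points of Mm018 and Mm068 lie above the dashed line at −1.01 and −0.95, and those of Mm027 and Mm054 below it at 0.85 and 0.61.

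The other 5 probes with a positive interaction had values of 0.72 to 1.03 (limma adjusted p from 0.0152 to 0.0256). In 6 of the 7 positive probes both single deficiencies had a lower mean response than WT and the double deficiency a higher one than either. A positive interaction favours that order by its arithmetic, and 12 of the 82 tested probes showed it. Over the 7 probes the median response was 0.22 in WT, −0.11 in CARKO, −0.17 in PXRKO and 0.30 in CAR/PXR, against medians over all tested probes within 0.026 of 0 in each genotype. In WT 3 of the 7 rose and 1 fell, where 39% of the tested probes passed, 24.4% rising and 14.6% falling. In CAR/PXR 4 of the 7 rose, where 20.7% passed, 12.2% rising and 8.54% falling. In CARKO 1 of the 7 fell, where 4.88% passed, 3.66% rising and 1.22% falling. In PXRKO, where 18.3% passed, 12.2% rising and 6.1% falling, the 7 means ran from −0.29 to 0.0069 and not one passed. In each of the 3 probes with a negative interaction the CAR/PXR mean was below 0 and below both single deficiencies. A negative interaction favours that order by its arithmetic, and its share over all tested probes was not counted. Probes that did not pass showed it too, Mm013, Mm038 and Mm039 among them, so that order is not particular to the 3 probes.

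The third negative probe was Mm044, the probe with the second largest fall past the threshold in WT. Its log2 ratio was −1.01 to −0.30 on the 6 WT arrays (median −0.61). On the 6 CARKO arrays it was −0.64 to 0.16 (median 0.080). In PXRKO it was 0.16, −0.37, 0.30 and 0.03, and in CAR/PXR −0.17, −0.17, −0.25 and −0.16. The fall seen in WT was thus smaller or absent on most arrays of all 3 deficient genotypes, although the WT range overlapped those of CARKO and of PXRKO. All 4 CAR/PXR values stayed below 0, while most CARKO and most PXRKO values were above 0. Either loss raised the response, by 0.56 ± 0.15 for CAR and 0.67 ± 0.17 for PXR (SE, limma adjusted p = 0.0127 and 0.0260). Their sum predicts 0.59 ± 0.20 and the CAR/PXR mean was −0.19 ± 0.04 (SD, n = 4), an interaction of −0.78 ± 0.24 (SE, limma adjusted p = 0.0382). This was the weakest of the 10 calls. It ended in 14 of the 20 fits that left out 1 array (highest adjusted p = 0.0937). It also ended when the 4 arrays whose labels conflict were left out (−0.74, adjusted p = 0.203). With calibration centring, where the median probe lay at −1.40, the interaction was −2.67 (adjusted p = 0.00743). It did not pass in the authors' table (−1.60, adjusted p = 0.197) or without centring (−2.08, adjusted p = 0.301). The first probe outside the threshold had an interaction of 0.43 (limma adjusted p = 0.0593).

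**Figure D2:**
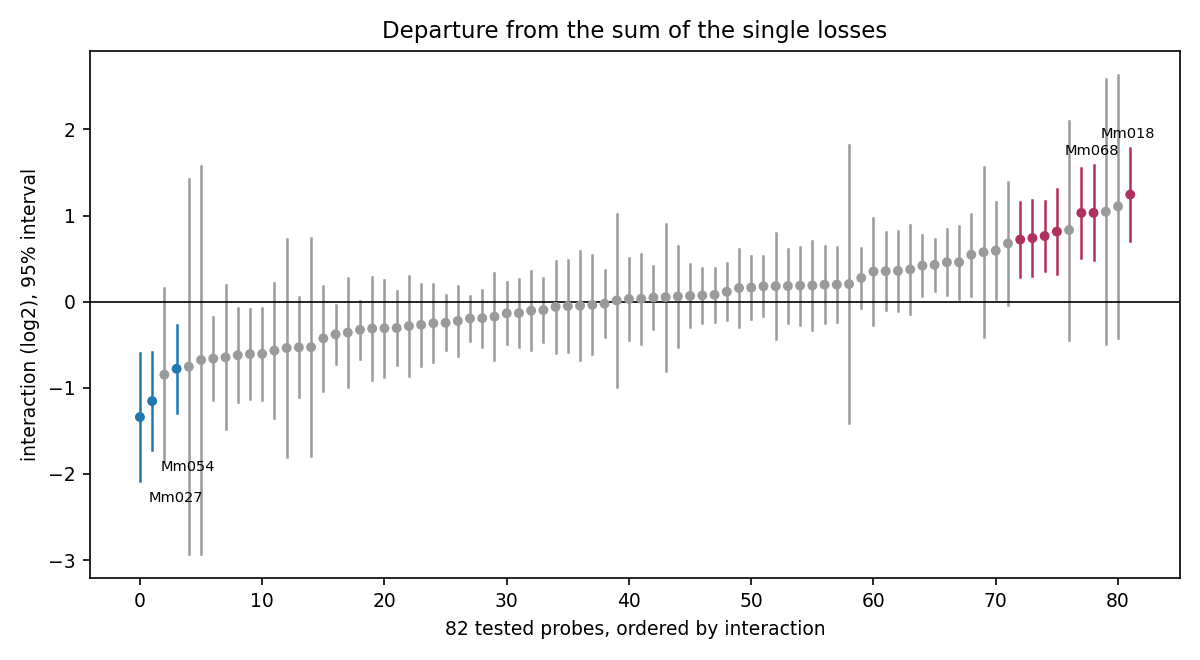
Interaction (log2) of each of the 82 tested probes in ascending order, with its 95% interval; coloured probes passed the threshold, 7 above 0 and 3 below. Mm018 is the highest and Mm027 and Mm054 the lowest. An unnamed probe (1.11) and Mm001 (1.04) lie above Mm068 (1.03) with intervals that span 0.

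The largest responses of the series did not pass the test for an interaction after loess. Mm038 had log2 ratios of 1.91 to 6.20 in WT (median 5.04) and of 3.71, 5.10, 3.57 and 3.94 in PXRKO. It had a value on 4 CARKO arrays, at 1.62, 0.30, −0.31 and −0.21, and on the CAR/PXR arrays it was −0.50, −0.43, 0.13 and −3.15. The ranges with and without CAR did not overlap, whether or not PXR was present. CAR loss gave a difference of −4.39 ± 0.72 with PXR and −5.07 ± 0.79 without it (SE, limma adjusted p = 2.32e-04 and 2.83e-04). The difference between these was −0.68 with a 95% interval of −2.93 to 1.57 (adjusted p = 0.684). Without CAR/PXR 4 it was 0.042, and with flagged spots kept 0.076. With calibration centring it was −2.47 and passed (adjusted p = 0.0386, from 0.0386 to 0.970 over all alternatives), at a median probe of −1.40.

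Mm039 gave 1.56 to 4.88 in WT (median 4.70) and 3.18, 4.20, 3.07 and 3.56 in PXRKO. In CARKO it had 1.43, 0.16, −0.06 and 0.08 on 4 arrays, and in CAR/PXR −0.04, −0.10, −0.05 and −0.15. The differences for CAR loss were −3.79 ± 0.51 with PXR and −3.59 ± 0.56 without it (SE, limma adjusted p = 8.73e-05 and 2.83e-04). The interaction was 0.20, with a 95% interval of −1.41 to 1.81 (adjusted p = 0.902). It was 0.73 without WT 1, 1.61 with background subtraction and −1.54 with calibration centring (adjusted p = 0.0923), and its adjusted p ran from 0.0923 to 0.987 over all alternatives. After loess both intervals reach past a 2-fold departure from additivity in either direction. In Cy3, Mm038 was well above background on 0 of 20 arrays, and Mm039 on 1 array each of WT, PXRKO and CAR/PXR. In Cy5, Mm038 was well above background on 1 of 6 CARKO and 1 of 4 CAR/PXR arrays, and Mm039 on 2 and 3. On CAR/PXR 4, where Mm038 was at −3.15, neither of its channels was well above background. The values of Mm038 and Mm039 are therefore no measured folds, and their interactions rest on the dim Cy3 channel in all 4 genotypes.

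**Figure D3:**
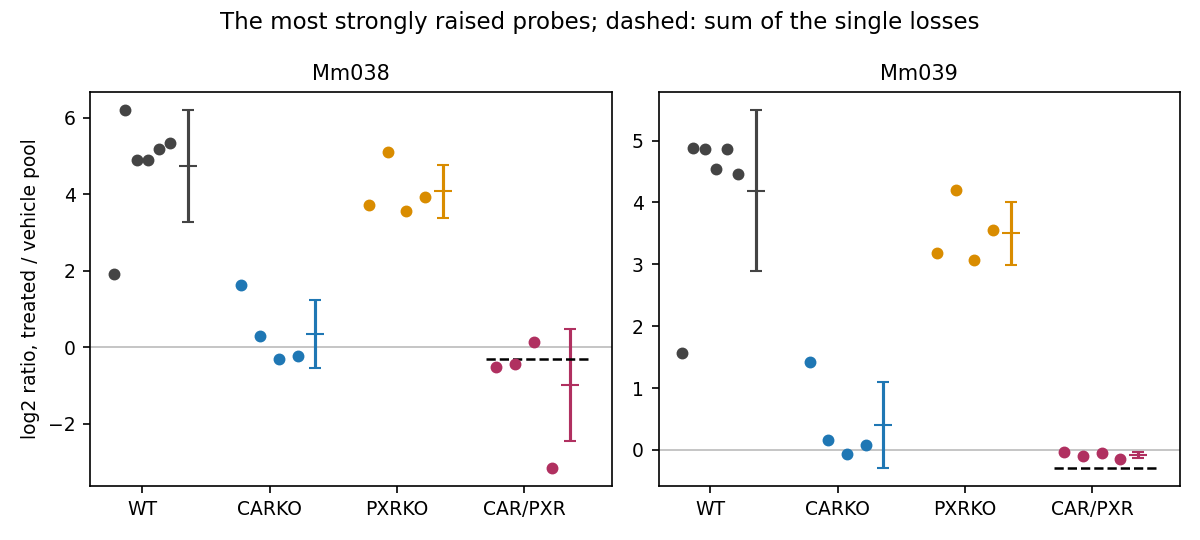
Log2 ratio of treated liver over vehicle pool on each array for Mm038 and Mm039, by genotype, with the mean ± SD beside each group and the additive prediction as a dashed line. Values are high in WT and PXRKO and lower in CARKO and CAR/PXR, where most lie near 0; CARKO 1 lies above (1.62 and 1.43) and CAR/PXR 4 below for Mm038 (−3.15). The prediction for CAR/PXR is −0.31 and −0.29.

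The interaction is the difference between the effects of CAR loss with and without PXR, and these 2 contrasts share no array. With PXR present, the response of 15 of the 82 probes differed between CARKO and WT, which is 18.3%: 6 were higher (7.32%) and 9 lower (11%). With PXR absent, 23 differed between CAR/PXR and PXRKO, which is 28%: 11 were higher (13.4%) and 12 lower (14.6%). The lists shared 8 probes, 53.3% of the first and 34.8% of the second, and all 8 had the same sign in both. None of these 8 passed the test for an interaction (limma). Of the 15 probes called with PXR absent alone, 7 passed the test of the interaction, and of the 7 called with PXR present alone, 3 did. For the other 12 the difference between the contrasts was not past the threshold, so a call in 1 of them is not shown to be particular to it. Of the 10 interaction probes, 8 had CAR-loss differences of opposite sign, as did 31 of the 82 tested. A large interaction favours opposite signs by its arithmetic.

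Read the other way, the interaction compares the loss of PXR with and without CAR. With CAR present, 3 of the 82 probes differed between PXRKO and WT (3.66%), 1 higher (1.22%) and 2 lower (2.44%), and all 3 were among the 10. With CAR absent, 18 differed between CAR/PXR and CARKO (22%), 10 higher (12.2%) and 8 lower (9.76%), and 5 of them were among the 10. The PXR-loss differences had opposite signs for 9 of the 10, and for 42 of the 82 tested, which the same arithmetic favours among the 10.

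Across the 82 probes Pearson's r between the CAR-loss differences with and without PXR was 0.82, and Spearman's rho 0.34. Leaving out Mm038 and Mm039 lowered them to 0.58 and 0.29, over 80 probes. These are descriptions across probes, which share arrays and are no independent replicates. The same probes gave no positive relation between the CAR/PXR response and the sum of the single losses (Pearson correlation −0.063, and −0.097 without Mm038 and Mm039). The SD over those 80 probes was 0.40 for the predicted and 0.30 for the measured responses. The measured response was closer to 0 than the predicted one for 48 of 82 probes.

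**Figure D4:**
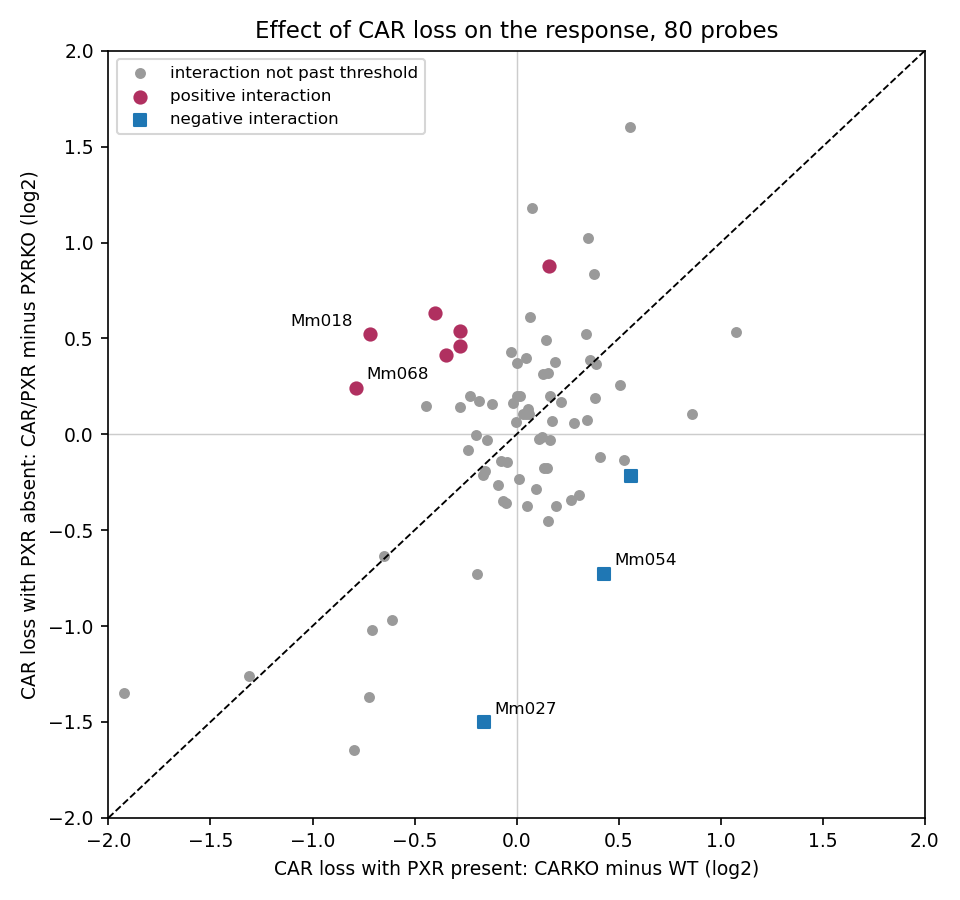
Difference in response by CAR loss with PXR present (CARKO minus WT, horizontal) and absent (CAR/PXR minus PXRKO, vertical), log2, for 80 tested probes; Mm038 and Mm039 lie outside the axes. Probes on the dashed line have no interaction; of the 10 that passed, 8 lie in the quadrants where the differences have opposite signs.

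Among the probes past the threshold for CAR loss with PXR present, Mm013 had the second largest rise after Mm044, 0.53 ± 0.15 (SE, limma adjusted p = 0.0136). That call ended with median centring (0.24, adjusted p = 0.428). Its log2 ratio ran from −0.72 to 0.090 in WT and from 0.0029 to 0.65 in CARKO. It was −0.34, 0.05, −0.34 and −0.02 in PXRKO and −0.57, 0.08, −0.36 and −0.34 in CAR/PXR, without a shift between these. Its interaction of −0.66 ± 0.23 did not pass (adjusted p = 0.0700). It passed with slide position as a block (adjusted p = 0.0403), with scale normalization, flagged spots kept or calibration centring, and without WT 4, CARKO 5 or CAR/PXR 2 (−0.79 without the last). Only 1 of the 6 WT arrays had a Cy5 signal of Mm013 well above background.

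Among the probes past the threshold for CAR loss with PXR absent, Mm001 and Mm150 had the largest rises, of 1.60 ± 0.57 and 1.02 ± 0.26 (SE, limma adjusted p = 0.0456 and 0.0073). Mm001 was −2.37, 0.82, −1.79 and −2.03 in PXRKO and 0.17, 0.55, 0.13 and 0.18 in CAR/PXR. In CARKO its lowest, median and highest values were −0.17, −0.06 and 2.54, and in WT −0.33, −0.18 and −0.11. CARKO 5 and PXRKO 2 thus stood apart from their groups. Mm150 showed the same arrays apart: it was −1.09, 0.10, −0.85 and −0.87 in PXRKO and 0.39, 0.44, 0.28 and 0.28 in CAR/PXR. In CARKO it ran from −0.32 to 1.06, the highest being CARKO 5, and in WT from −0.77 to 0.092. Their interactions of 1.04 ± 0.74 and 0.68 ± 0.34 did not pass (SE, limma adjusted p = 0.380 and 0.218). Without PXRKO 2 they were 1.76 and 0.94 and both passed (adjusted p = 0.0345 and 0.0352). Without CARKO 5 that of Mm150 passed at 0.86 (adjusted p = 0.0342). The CAR-loss call of Mm001 with PXR absent ended in 11 of the 20 fits that left out 1 array, with values of 1.26 to 2.32. Both interactions were below 0 with calibration centring (−0.65 and −1.26), in the authors' table (−0.062 and −0.17) and without centring (−0.069 and −0.67).

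Mm061 had the largest fall past the threshold in WT, with log2 ratios of −2.66 to 0.62 (median −0.84). In CARKO it ran from −1.68 to 0.28, in PXRKO it was −0.16, −0.91, 0.13 and −0.21, and in CAR/PXR −0.63, −0.33, −0.39 and −0.27. All 4 groups overlapped. Its interaction of −0.53 had a 95% interval of −1.80 to 0.74 (limma adjusted p = 0.587), and it ran from −0.83 without WT 1 to −0.18 without WT 6. With calibration centring it was −2.09 and passed (adjusted p = 0.0173, from 0.0173 to 0.882 over all alternatives).

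The interaction is a difference of 4 means, and its median SE of 0.24 exceeded that of CAR loss with PXR present (0.15) or absent (0.19). Of the 72 probes that did not pass, 50 had a 95% interval within −1 to 1 on the log2 scale after loess. A departure above 2-fold, relative to the typical probe, lay outside it. For the other 22 the interval reached further. These bounds do not hold for the absolute level, since the median probe lay at −1.40 with calibration centring. An error of a pool is in none of these intervals. In bulk liver RNA a smaller number of cells of a type and less RNA per cell cannot be told apart.

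The count of 10 probes fell to 6 without PXRKO 3, without PXRKO 4 or without CAR/PXR 3, and rose to 16 without CARKO 5 and 17 without PXRKO 2. All 10 probes kept their sign in each of the 20 fits that left out 1 array, and 5 of them passed in every one. Leaving out the 4 arrays whose labels conflict gave 7 probes, all among the 10. A filter kept the 49 probes well above background on at least as many arrays as not, in each genotype and channel. It gave 8 probes, all among the 10, and left Mm054 untested. Spot coordinates divide the arrays into sets read here as an upper and a lower slide position, with equal numbers in each genotype. The names upper and lower are inferred from the coordinates alone. These sets are also those of odd and even replicate numbers. Position as a block gave 11 probes, including all 10. Taken alone, the upper position gave 0 probes in limma (11 unadjusted) and the lower position 0 (12 unadjusted), while all 10 kept their sign in both. The 10 were picked on these same arrays, which favours a kept sign here and in the fits that left out 1 array. The share of kept signs over all tested probes was not counted. Mm018 was at 1.15 and 1.34 in the upper and lower positions, Mm068 at 0.86 and 1.21, Mm027 at −1.59 and −1.08, and Mm054 at −1.23 and −1.07. Over all alternatives the adjusted p of the interaction ran from 0.00227 to 0.972 for Mm018, from 0.0019 to 0.906 for Mm068, and from 0.00278 to 0.262 for both Mm027 and Mm054. It ran from 0.00743 to 0.544 for Mm044, 0.015 to 0.749 for Mm013, 0.0345 to 0.945 for Mm001 and 0.0333 to 0.821 for Mm150.

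**Figure D5:**
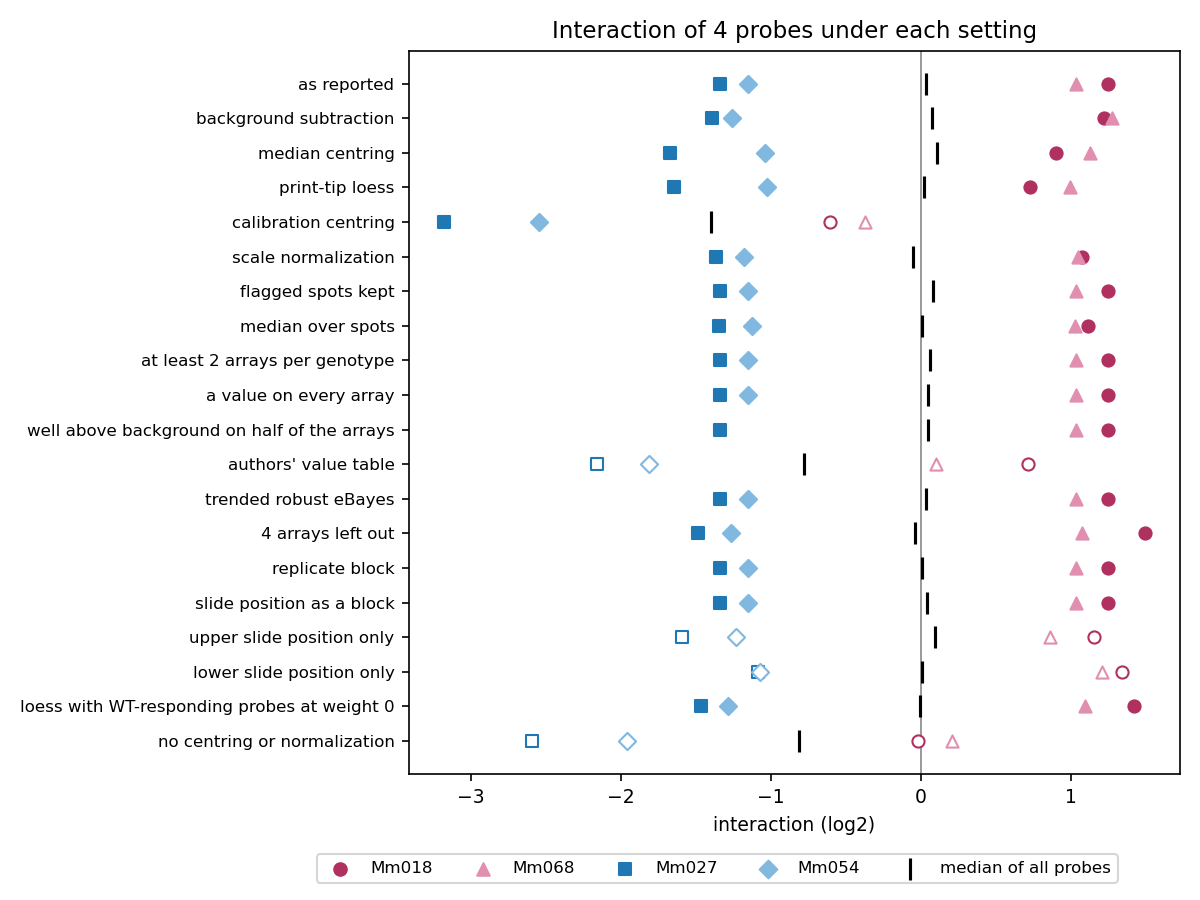
Interaction (log2) of the 4 named probes under each processing setting; filled symbols passed the threshold, open symbols did not, and the black bar is the median over all probes tested in that setting. The probes stay on opposite sides of the bar throughout, while the bar itself lies at −1.40 with calibration centring, −0.78 in the authors' table and −0.81 without centring. A shift of whole arrays moves the probes and the bar together, so their sides are favoured in advance.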

How the data were processed

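Per the file headers, each deposited scanner table gives the median foreground and background intensity of every spot in Cy5 and Cy3, the SD of the background, and saturation as a percent of pixels. None is normalized, and the sources used here do not give the flagging rule. The authors' deposited value table states no scale, centring or direction. The deposited values were read as log2 ratios of treated over pool because each column correlated with that array's scanner log2 ratios (r from 0.814 to 0.995), which does not settle the scale. Its column medians ran from −1.01 to 0.65, and it served as an alternative only.

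Intensities were corrected with normexp (offset 50) in limma 3.58.1 (R 4.3.3) and normalized by global loess within arrays, giving weight 0 to controls and flags. Flagged spots (0 to 247 of 578 per array) were then dropped, saturated ones kept, and a probe's spots averaged. Well above background means more than 2 background SDs over background on most spots of a probe. One lmFit model estimated 4 genotype means from the 20 arrays, with eBayes-moderated errors (3.12 prior and mostly 16 residual degrees of freedom). The p-values are two-sided, adjusted over 82 probes and called at 0.05. Named probes are the 2 highest and 2 lowest past the threshold for the interaction, each CAR-loss contrast and the WT response. Probes, lists and tests were chosen with earlier results of these data known. Dyes were not swapped. Precision is limited by the number of arrays. The fit was tested on simulated data. Same-numbered arrays did not deviate together (correlation over 0.1 in 11 of 26 pairs), so numbers were not taken as pairs. Alternatives covered background, normalization, filters, left-out arrays and blocks.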

Additional observations from a re-analysis of the deposited data

Results flagged for a closer look

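The interaction is itself a test of whether the effect of CAR loss differs between livers with and without PXR. It passed for 5 of the named probes: Mm018 (1.24), Mm068 (1.03), Mm027 (−1.34), Mm054 (−1.15) and Mm044 (−0.78). Over all 82 tested probes 12.2% passed (limma). Mm018, Mm068, Mm027 and Mm054 were named because they passed, so their calls here add nothing. Mm044 was named for other contrasts on the same arrays.

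Single arrays stood far from the rest of their genotype in 9 of 44 groups of values examined for the named probes. Chance flags about 1 in 20 independent groups. These groups share arrays and their probes were chosen for large contrasts, so the count cannot be set against that rate. CARKO 5 was high for Mm001 (2.54, next highest 0.075), Mm150 (1.06, next highest 0.068) and Mm068 (0.59, next highest −0.088). CARKO 4 was low for Mm018 (−0.51, next lowest −0.068). CARKO 1 was high for Mm039 (1.43, next highest 0.16). WT 1 was low for Mm038 (1.91, next lowest 4.89) and for Mm039 (1.56, next lowest 4.46). CAR/PXR 2 was high for Mm001 (0.55, next highest 0.18) and CAR/PXR 3 low for Mm044 (−0.25, next lowest −0.17).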

How the results depend on the processing

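Centring decides the absolute level of the interaction. Calibration centring gave 54 probes for the interaction, 27 for CAR loss with PXR present (24 higher, 3 lower) and 12 with PXR absent (0 higher). It turned the interactions of Mm018 (−0.61), Mm068 (−0.38), Mm150 (−1.26), Mm001 (−0.65) and Mm039 (−1.54), brought those of Mm038 (−2.47), Mm061 (−2.09) and Mm013 (−1.68) past the threshold, and turned Mm150's CAR-loss difference with PXR absent (−0.055). Without any centring, added after seeing the data, limma gave 0 (9 at an unadjusted p under 0.05), 42 and 2 probes, and Mm018 was at −0.023. The authors' table gave 0 (12 unadjusted in limma), 1 and 4. The cause was not tested. For the interaction, keeping flagged spots gave 16 of 120 probes tested. Upper and lower slide positions alone, with fewer arrays, gave 0 and 0 (limma) for the interaction, 0 (11 unadjusted) and 8 for CAR loss with PXR present, and 3 and 6 with PXR absent. CAR loss with PXR present gave 24 with background subtraction, 25 with flagged spots kept and 8 when the 4 arrays whose labels conflict were left out. With PXR absent, leaving those out gave 13, and loess with WT-responding probes at weight 0, added after seeing the data, gave 15. Leaving out 1 array gave 6 to 17, 12 to 21 and 13 to 35 probes. The replicate block gave 10, 18 and 23. Of the 19 other settings, 13, 11 and 12 kept the count within 1.5 times. Splits of higher against lower for CAR loss with PXR absent were 4 and 12 with median centring and with scale normalization, and 3 and 12 with WT-responding probes at weight 0, which gave 4 and 16 with PXR present. Dim Cy3 signal limits Mm038 and Mm039, and so does dim Cy5 signal on most CARKO arrays and, for Mm038, most CAR/PXR arrays.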
